A study of Mus musculus with 16 samples.

Results

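Oxidative phosphorylation is the chain of 5 protein complexes in the inner mitochondrial membrane that turns the oxidation of nutrients into ATP. The subunits described here are the protein-coding genes whose symbol begins with mt- or is that of a structural subunit of complex I (Nduf genes), complex II (Sdh genes), complex III (Uqcr genes and Cyc1), complex IV (Cox4 to Cox8 genes) or complex V (Atp5 genes). By this rule, 98 of the 55487 gene identifiers in the expression table were members. The mitochondrial genome carries 13 of them: 7 of complex I, 1 of complex III, 3 of complex IV and 2 of complex V. The nuclear genome carries the other 85: 36 of complex I, 4 of complex II, 9 of complex III, 18 of complex IV and 18 of complex V. The rule uses names and no measured value, and it leaves out assembly factors and subunits with other names. Each member's complex is likewise read from its symbol and not from the known place of its protein, so that Ndufa4 counts with complex I.

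Complexes I, III and IV pass electrons from NADH to oxygen and pump protons, complex II feeds in electrons from succinate without pumping, and complex V is the ATP synthase driven by the proton gradient. All but complex II are built from subunits of both genomes, so nuclear transcription, mitochondrial transcription and import have to supply matching parts. Neurons draw most of their ATP from this pathway, while macrophages and microglia are known to shift towards glycolysis when activated by bacterial lipopolysaccharide (LPS).

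The data were bulk RNA-Seq of cerebral cortex in 16 libraries from male wild-type C57Bl6 mice aged 2 months, given LPS or its vehicle, phosphate-buffered saline (PBS), to ask whether time of day (TOD) changes brain inflammation. Mice were injected i.p. with 2 mg/kg LPS or with PBS on 2 consecutive days, either at zeitgeber time (ZT) 1, shortly after lights-on, or at ZT13, shortly after lights-off, and cortex was taken 24 hours after the last injection. There were 3 libraries in the ZT1 PBS group, 5 in ZT1 LPS, 3 in ZT13 PBS and 5 in ZT13 LPS, and titles give the time as AM or PM. Ribosomal RNA was depleted from 1 µg of total RNA before library preparation, so the mitochondrial ribosomal RNAs were removed too, while the mitochondrial mRNAs were kept.

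The table holds CPM values, the reads on a gene scaled so that the reads on all genes of a library sum to 1000000, and libraries held 20251840 to 29112758 such reads (median 22459623). For 12 of the 16 libraries, a treatment field in the labels names the other treatment than the title does. Groups here follow the titles: Gfap, an astrocyte filament gene that rises with gliosis, was above every PBS library of its time in each library titled LPS (log2 difference of 3.09 ± 0.089 SE at ZT13). With the treatment field in place of the titles, limma called 0 members and 0 genes at either time, with 1 member at ZT1 and 4 at ZT13 at an unadjusted p under 0.05. The study counts mice as replicates, so p-values measure the spread between mice.

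Mitochondrial-genome members made up 1.77% to 2.08% of the reads on genes in every library, and the nuclear members together 0.54% to 0.566%. Per kilobase of annotated transcript, mean CPM over the 16 libraries ran from 186 to 4085 (median 1289) for the mitochondrial-genome members. For the nuclear members it ran from 0 to 353 (median 55.9). The annotated transcript of a mitochondrial-genome member is its gene alone, 204 bases in mt-Atp8. On this per-length scale, mt-Co1, the catalytic core of complex IV, stood highest at 4085 CPM per kb. It was followed by mt-Cytb, the cytochrome b of complex III, at 2311 CPM per kb and by mt-Nd1, a membrane-arm subunit of complex I, at 1791 CPM per kb. The highest nuclear member, Cox8a, a small subunit of complex IV, reached 353 CPM per kb, above mt-Atp8 (323), mt-Nd3 (253) and mt-Nd6 (186). Cox4i1 (305.5 CPM per kb), Atp5b (295), Cox6a1 (281) and Atp5a1 (212) came next among the nuclear members. By complex, the median nuclear level per kilobase was 44.2 for complex I, 43.2 for complex II, 83.1 for complex III, 58.9 for complex IV and 66.3 for complex V.

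Of the 98 members, 91 passed the filter on low values (1 CPM in at least 3 of the 16 libraries): 13 of the mitochondrial genome and 78 nuclear. The other 7 were isoforms known from other tissues, plus a second identifier of Atp5o with no reads. Cox4i2, a hypoxia-regulated isoform known from lung, and Cox6b2, a testis isoform, were above the limit that 3 reads allow (0.103 to 0.148 CPM, counting error only) in 16 libraries. Cox7a1, the heart and muscle isoform, was above it in 14 libraries, Cox8b in 8, Cox7b2 in 2 and Cox8c in 0.

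**Figure D1:**
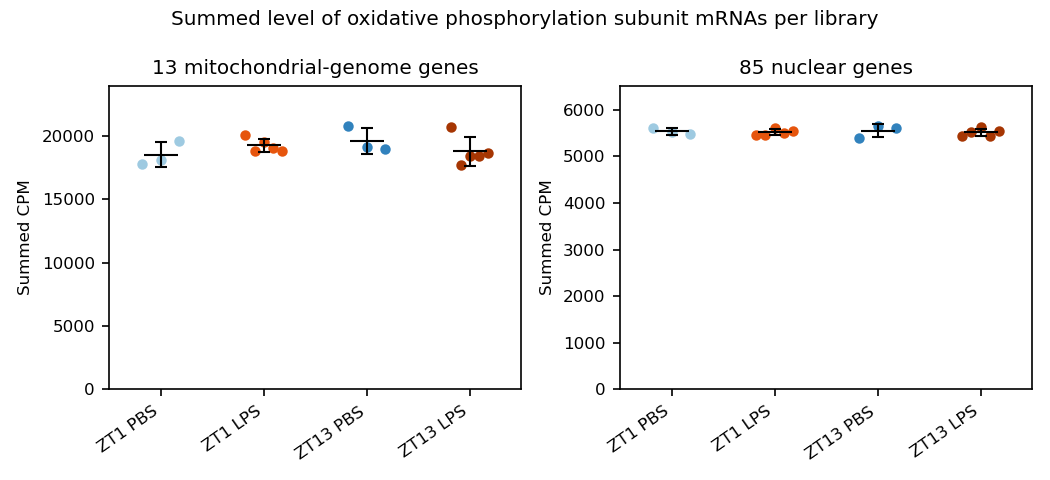
Summed level of the oxidative phosphorylation subunits in each cortex library, in CPM, for the mitochondrial-genome members and the nuclear members, by group. Points are libraries and bars are the mean ± SD; the mitochondrial sums lie between 17714 and 20845 and the nuclear sums between 5399 and 5665, with every group overlapping the others.

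In sum, the mitochondrial-genome members stood at 17772, 18149 and 19655 CPM in the ZT1 PBS libraries. The ZT1 LPS libraries had 20097, 18820.4, 19532, 19082 and 18821 CPM. At ZT13, the PBS libraries had 20845, 19128 and 18952 CPM and the LPS libraries had 20731, 17714, 18470.5, 18443 and 18667 CPM. The groups overlap at each time. Replicate 1 is the highest of its group in ZT1 LPS, ZT13 PBS and ZT13 LPS, and the lowest in ZT1 PBS. Summed nuclear members averaged 5539 ± 68.7 (SD) CPM in ZT1 PBS, 5517 ± 65.5 in ZT1 LPS, 5557 ± 140.3 in ZT13 PBS and 5519 ± 82.3 in ZT13 LPS. In bulk tissue, fewer cells of a type and less RNA per cell cannot be told apart in any of these levels.

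Compared with genes in the members' range of expression, nuclear members varied less within groups and mitochondrial-genome members varied more. The median SD of log2 values within groups was 0.070 over the 91 members tested, 0.067 for the nuclear and 0.099 for the mitochondrial-genome members. For all 18859 genes tested it was 0.130, and for genes in the members' range of expression 0.081.

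After LPS at ZT1, 5 of the 91 members tested differed from PBS at an adjusted p under 0.05 in limma (5.49%), where 16.2% of all genes tested did. The 2 members that rose were Ndufs1 and Atp5a1, by 11.1% and 9.02%. The 3 others, Ndufb2, Uqcr11 and Atp5g1, fell by 13.2%, 11.9% and 9.93%. Of all genes, 11.1% rose and 5.15% fell. At an unadjusted p under 0.05, 15 members differed (16.5%, against 30.3% of all genes). The calls at ZT1 rest on individual libraries: limma called 0 members without LPS replicate 1, LPS replicate 4, PBS replicate 1 or PBS replicate 2 (8, 10, 8 and 6 at an unadjusted p under 0.05), and 1 without LPS replicate 3 or PBS replicate 3. Over 13 other settings, Ndufb2 was past the threshold in 12, Uqcr11 and Atp5g1 in 10, Atp5a1 in 8 and Ndufs1 in 7. Scaling the libraries by the median of ratios gave 0 higher and 4 lower. Quantile normalization gave 2 higher and 4 lower.

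After LPS at ZT13, 10 of the 91 members tested differed from PBS (11.0%), against 28.6% of all genes. The 4 members that rose include Ndufv3, Uqcrb and Cox7a2l. The 6 that fell were Cox6a2, Ndufa11, Atp5g1, Atp5o, mt-Nd4 and mt-Nd4l. Of all genes, 19.2% rose and 9.4% fell, and 21 members differed at an unadjusted p under 0.05 (23.1%, against 38.3% of all genes). Of the calls named, that of Atp5o was past the threshold in 13 of 13 other settings and without each of 8 libraries in turn. Those of Ndufv3 (10 of 13 settings, 8 of 8 omissions), Uqcrb (10 and 6) and Cox7a2l (9 and 7) were lost under median-of-ratios scaling, quantile normalization and the removal of GC and length trends. Atp5g1 was past the threshold in 11 settings and 6 omissions, Cox6a2 in 10 of 12 settings and 3 omissions, mt-Nd4l in 9 and 4, Ndufa11 in 9 and 1 and mt-Nd4 in 7 and 1. The split moved with the scaling: median-of-ratios scaling gave 0 higher and 24 lower and quantile normalization 2 higher and 14 lower. With trends on GC content and transcript length removed from every library, an alternative added after the data were seen, it was 0 higher and 15 lower at ZT1 and 0 higher and 59 lower at ZT13. That removal also moved the median log2 difference of all genes tested from 0.050 to -0.082 at ZT13 and from 0.040 to -0.057 at ZT1. Relative to that median, the nuclear members' median was -0.072 in CPM and -0.098 after the removal at ZT13, and -0.058 and -0.071 at ZT1. Under quantile normalization it was -0.0083 at ZT13 and -0.020 at ZT1, and without ZT13 PBS replicate 2 it was -0.033 at ZT13. Nuclear members have shorter transcripts than the genes tested, with a median exon length of 1696.5 bases against 3808.5, at a GC content of 50.2% against 49.1%.

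**Figure D2:**
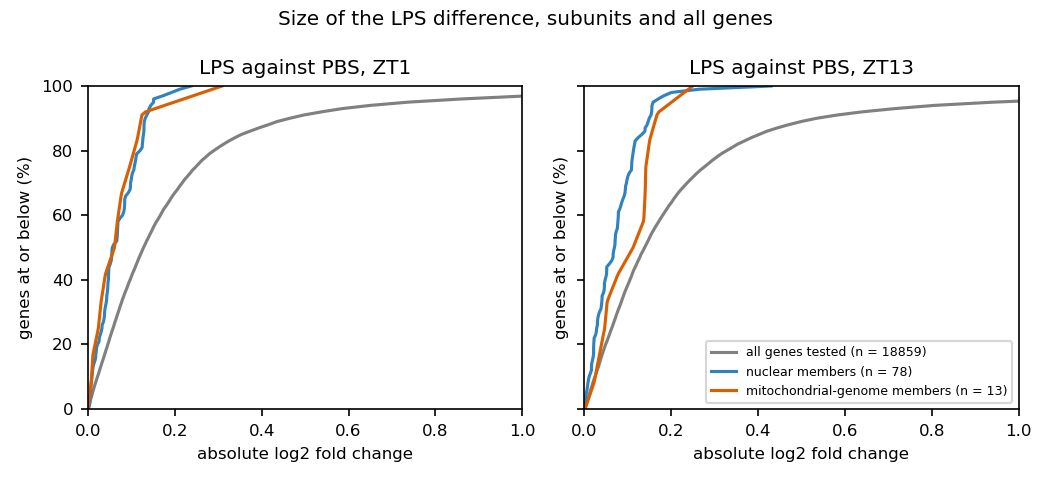
Percent of genes (vertical axis) whose absolute log2 difference between LPS and PBS is at or below each value (horizontal axis, which ends at 1), for the nuclear members, the mitochondrial-genome members and all genes tested at ZT1 and at ZT13. The medians are 0.056, 0.061 and 0.128 at ZT1 and 0.069, 0.112 and 0.139 at ZT13. No matching for expression level was done.

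The differences were small in size. At ZT1, the median absolute log2 difference was 0.057 over the members and 0.128 over all genes tested. The 95% confidence interval lay within 0.5 log2 units of 0, a 1.41-fold change, for 89 of 91 members (97.8%, against 68.6% of all genes). It lay within 0.25 log2 units, a 1.19-fold change, for 72 members (79.1%, against 28.3%). At ZT13, the median absolute difference was 0.071 over the members and 0.139 over all genes. Intervals lay within 0.5 log2 units for 90 of 91 members (98.9%, against 68.9%) and within 0.25 units for 75 (82.4%, against 30.5%). The members whose intervals reached further were Cox6a2 at both times and mt-Atp8 at ZT1. The values for all genes in this paragraph were not matched for expression level. The median SD of log2 values within groups was 0.130 for all genes and 0.081 for genes in the members' range of expression. LPS and PBS libraries did not overlap for 18 members at ZT1, where 24.3% of all genes did not, and for 16 members at ZT13, where 31.2% of all genes did not.

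Nuclear subunits of complex I were the largest group, with 36 of 36 tested. The NADH-binding and electron-carrying core includes Ndufv1, Ndufv2, Ndufs1, Ndufs3, Ndufs7 and Ndufs8, and most of the other members are accessory subunits. At ZT1, 1 member rose and 1 fell, 14 of the 36 log2 differences were above 0 and the median was -0.0073. At ZT13, 2 rose and 1 fell, 15 were above 0 and the median was -0.011.

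Ndufs1 (chromosome 1, 63143596-63176833, minus strand, GRCm38) encodes the large iron-sulfur subunit of the electron-carrying arm. It stood at 71.0, 68.3 and 72.8 CPM in ZT1 PBS and at 79.0, 79.7, 80.5, 79.5 and 74.1 CPM in ZT1 LPS. Every LPS library lay above every PBS library, and the log2 difference was 0.15 ± 0.044 (SE, adjusted p = 0.038). At ZT13, the PBS libraries had 77.2, 78.4 and 72.9 CPM and the LPS libraries 81.5, 76.8, 78.0, 75.0 and 75.3 CPM, which overlap. Its exons share bases with Eef1b2 and Ino80dos on the opposite strand, and the reads were not stated to be counted by strand.

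Ndufb2 (chromosome 6, 39592574-39603382, plus strand) is an accessory subunit of the membrane arm. Its ZT1 PBS libraries held 26.7, 25.9 and 27.0 CPM and its ZT1 LPS libraries 22.8, 22.2, 22.6, 22.7 and 24.7 CPM. The groups do not overlap and Ndufb2 fell by 0.20 ± 0.057 on the log2 scale (adjusted p = 0.032). At ZT13, the difference was -0.07 (adjusted p = 0.43), with the PBS libraries (23.0, 23.8 and 25.4 CPM) below those of ZT1. Ndufb2 shares exon bases with Gm42420 on its own strand and with Braf and Gm16272 on the opposite strand. The highest of these averaged 179.8 CPM, and the reads were not stated to be counted by strand. The part of such reads in the Ndufb2 values was not tested.

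Ndufv3 (chromosome 17, 31520115-31531331, plus strand), an accessory subunit of the NADH-oxidizing module, had 26.8, 29.1 and 26.6 CPM in ZT13 PBS. In ZT13 LPS it had 30.9, 31.7, 34.2, 31.8 and 31.3 CPM. The groups do not overlap, with a log2 difference of 0.21 ± 0.054 (adjusted p = 0.0080), a rise of 16.1%. At ZT1 the groups overlap (29.2, 26.8 and 27.8 CPM against 32.3, 27.4, 30.1, 29.5 and 27.4 CPM).

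Ndufa11 (chromosome 17, 56717767-56722141, plus strand), a membrane-arm accessory subunit that faces complex III in supercomplexes, had 41.1, 40.9 and 41.8 CPM in ZT13 PBS. Its ZT13 LPS libraries had 37.1, 37.9, 40.0, 33.8 and 36.3 CPM, each below every PBS library. It fell by 0.16 ± 0.054 on the log2 scale (adjusted p = 0.047). Among the core subunits that were not called at either time, Ndufs3 differed by 0.13 at ZT1 (adjusted p = 0.091) and 0.11 at ZT13 (adjusted p = 0.17), and Ndufv1, Ndufv2, Ndufs7 and Ndufs8 by -0.09 to 0.09.

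Complex II, succinate dehydrogenase, is also an enzyme of the tricarboxylic acid (TCA) cycle and is entirely nuclear. None of its 4 subunits was called in any comparison, with 1 at an unadjusted p under 0.05 in limma for LPS at ZT1, for each comparison between times and for the interaction (Sdhd, unadjusted p = 0.0061), and 0 for LPS at ZT13. Their sum was 374, 376 and 371 CPM in ZT1 PBS, 401, 377, 384, 392 and 400.3 CPM in ZT1 LPS. At ZT13 it was 386, 387 and 386 CPM in PBS and 390.5, 380.3, 399, 384 and 376 CPM in LPS, which span the PBS libraries. At ZT1 all 4 log2 differences were above 0 (median 0.108), and at ZT13 only that of Sdhb was (0.07). Sdhd, a membrane anchor, had 28.9, 30.0 and 31.2 CPM in ZT1 PBS and 34.7, 34.9, 30.9, 31.6 and 32.2 CPM in ZT1 LPS. At ZT13 its PBS libraries had 32.1, 32.5 and 31.9 CPM and its LPS libraries 29.9, 28.7, 30.8, 30.6 and 30.7 CPM, so that the LPS libraries lay below the PBS libraries. Its test was not passed at ZT1 (0.13, adjusted p = 0.18), at ZT13 (-0.09, adjusted p = 0.17) or for the difference between the times (-0.22, adjusted p = 0.30).

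Among the 9 nuclear subunits of complex III, 1 fell at ZT1 and 1 rose at ZT13. Uqcr11 (chromosome 10, 80402997-80406830, minus strand), its smallest accessory subunit, had 59.9, 55.4 and 55.2 CPM in ZT1 PBS and 47.1, 48.9, 52.9, 50.1 and 50.9 CPM in ZT1 LPS. The groups do not overlap and it fell by 0.18 ± 0.052 on the log2 scale (adjusted p = 0.034). Uqcrb (chromosome 13, 66900617-66905378, minus strand), a subunit that helps to hold the ubiquinone-binding region, had 19.0, 19.4 and 18.5 CPM in ZT13 PBS. Its ZT13 LPS libraries had 21.8, 22.1, 22.3, 20.8 and 21.5 CPM, all above the PBS libraries, with a log2 difference of 0.19 ± 0.054 (adjusted p = 0.018). Uqcrb shares exon bases with Gm10767. The catalytic subunits Cyc1 (-0.04 at ZT1 and -0.07 at ZT13) and Uqcrfs1 (-0.08 and -0.11), the Rieske iron-sulfur protein, did not pass the test.

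Complex IV had 12 of 18 nuclear members tested, with 0 called in limma at ZT1 (0 at an unadjusted p under 0.05) and 1 in each direction at ZT13. Cox7a2l (chromosome 17, 83501918-83517330, minus strand), known for joining complex III and complex IV into a supercomplex, had 54.5, 54.8 and 52.8 CPM in ZT13 PBS. In ZT13 LPS it had 58.1, 58.6, 60.3, 61.2 and 63.4 CPM. The groups do not overlap and the log2 difference was 0.16 ± 0.042 (adjusted p = 0.013), and it was -0.023 with the GC and length trends removed, where the median of all genes was -0.082. The abundant subunits differed little: Cox4i1 by -0.04 at ZT1 and 0.00 at ZT13, Cox6a1 by -0.07 and 0.03, and Cox8a by -0.04 and 0.03, none of them past the threshold.

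Cox6a2 (chromosome 7, 128205435-128206387, minus strand), the heart and skeletal muscle isoform of subunit 6a, was the nuclear member with the widest differences and a low level. It had 2.12, 1.83 and 2.06 CPM in ZT1 PBS and 2.24, 2.42, 2.27, 2.77 and 2.58 CPM in ZT1 LPS. At ZT13, the PBS libraries had 2.77, 3.15 and 2.87 CPM and the LPS libraries 2.44, 1.55, 2.22, 2.27 and 1.84 CPM. The LPS libraries lay above the PBS libraries at ZT1 and below them at ZT13. On the log2(CPM + 0.5) scale, the difference was 0.24 at ZT1 (adjusted p = 0.23) and -0.43 ± 0.146 at ZT13 (adjusted p = 0.041). The difference between these effects was -0.67 (95% CI -1.05 to -0.29) and did not pass the test over all genes (adjusted p = 0.19). Its exons share bases with Itgad on the opposite strand, which averaged 0.749 CPM.

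Tissue isoforms were also set against their common partners as log2 ratios of CPM + 0.5 within a library. These ratios were compared by exact permutation tests over samples (two-sided, 6 tests, smallest possible p 0.036). The ratio of Cox6a2 to Cox6a1 was -6.05 ± 0.094 (SD, n = 3) in ZT1 PBS and -5.75 ± 0.12 (n = 5) in ZT1 LPS, a difference of 0.30 (exact p = 0.036, adjusted 0.11). At ZT13 it was -5.53 ± 0.082 (n = 3) in PBS and -5.99 ± 0.28 (n = 5) in LPS, a difference of -0.46 (exact p = 0.036, adjusted 0.11). The ratio of Cox4i2 to Cox4i1 differed by 0.14 at ZT1 (exact p = 0.68) and -0.11 at ZT13 (exact p = 0.75). That of Cox7a1 to Cox7a2 differed by -0.041 (exact p = 0.89) and -0.34 (exact p = 0.14). Cox4i2 and Cox7a1 averaged 0.609 and 0.246 CPM in ZT13 LPS. Differences of isoforms this close to the added 0.5 CPM are understated on this scale. Markers of skeletal and cardiac muscle summed to 41.9 to 52.6 CPM over the libraries, Ckm reached at most 0.417 CPM, and 1 of the markers tested, Myh7, fell at both times. The part of these markers in the Cox6a2 values was not tested.

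Complex V had 17 of 18 nuclear members tested, with 1 higher and 1 lower at ZT1 and 0 higher and 2 lower at ZT13. Atp5g1 (chromosome 11, 96068852-96075670, minus strand) was the member called at both times. It encodes the c subunit of the rotating ring, and Atp5g2 and Atp5g3 encode the same mature peptide with other import sequences. It had 62.1, 64.6 and 62.0 CPM in ZT1 PBS and 57.1, 54.1, 54.8, 59.0 and 58.3 CPM in ZT1 LPS. At ZT13 it had 62.1, 63.1 and 63.8 CPM in PBS and 52.1, 56.3, 58.5, 58.7 and 57.2 CPM in LPS. At each time, every LPS library lay below every PBS library. Atp5g1 fell by 0.15 ± 0.046 on the log2 scale at ZT1 (adjusted p = 0.046) and by 0.16 ± 0.046 at ZT13 (adjusted p = 0.021).

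Atp5g3, per kilobase the most abundant of the c-subunit genes at 117 CPM per kb against 99.0 for Atp5g1 and 25.7 for Atp5g2, differed by 0.01 at ZT1 (adjusted p = 0.93) and -0.00 at ZT13. Atp5g2 differed by 0.10 (adjusted p = 0.63) and 0.15 (adjusted p = 0.52).

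Atp5o (chromosome 16, 91925214-91931687, minus strand), the subunit that ties the catalytic head to the peripheral stalk, had 81.3, 84.9 and 83.7 CPM in ZT13 PBS. Its ZT13 LPS libraries had 73.3, 77.5, 75.6, 74.9 and 75.0 CPM, all below the PBS libraries. It fell by 0.15 ± 0.037 on the log2 scale (adjusted p = 0.0084). At ZT1 the groups overlap (79.2, 82.2 and 79.1 CPM against 80.6, 76.8, 79.8, 76.9 and 74.3 CPM). Atp5a1, the α subunit of the catalytic head, had 500.5, 477 and 494 CPM in ZT1 PBS and 539, 564, 535, 519 and 518 CPM in ZT1 LPS. It rose by 0.12 ± 0.037 on the log2 scale (adjusted p = 0.042). Atp5b, the β subunit that carries the catalytic sites, differed by -0.05 at ZT1 (adjusted p = 0.26) and -0.07 at ZT13 (adjusted p = 0.12).

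**Figure D3:**
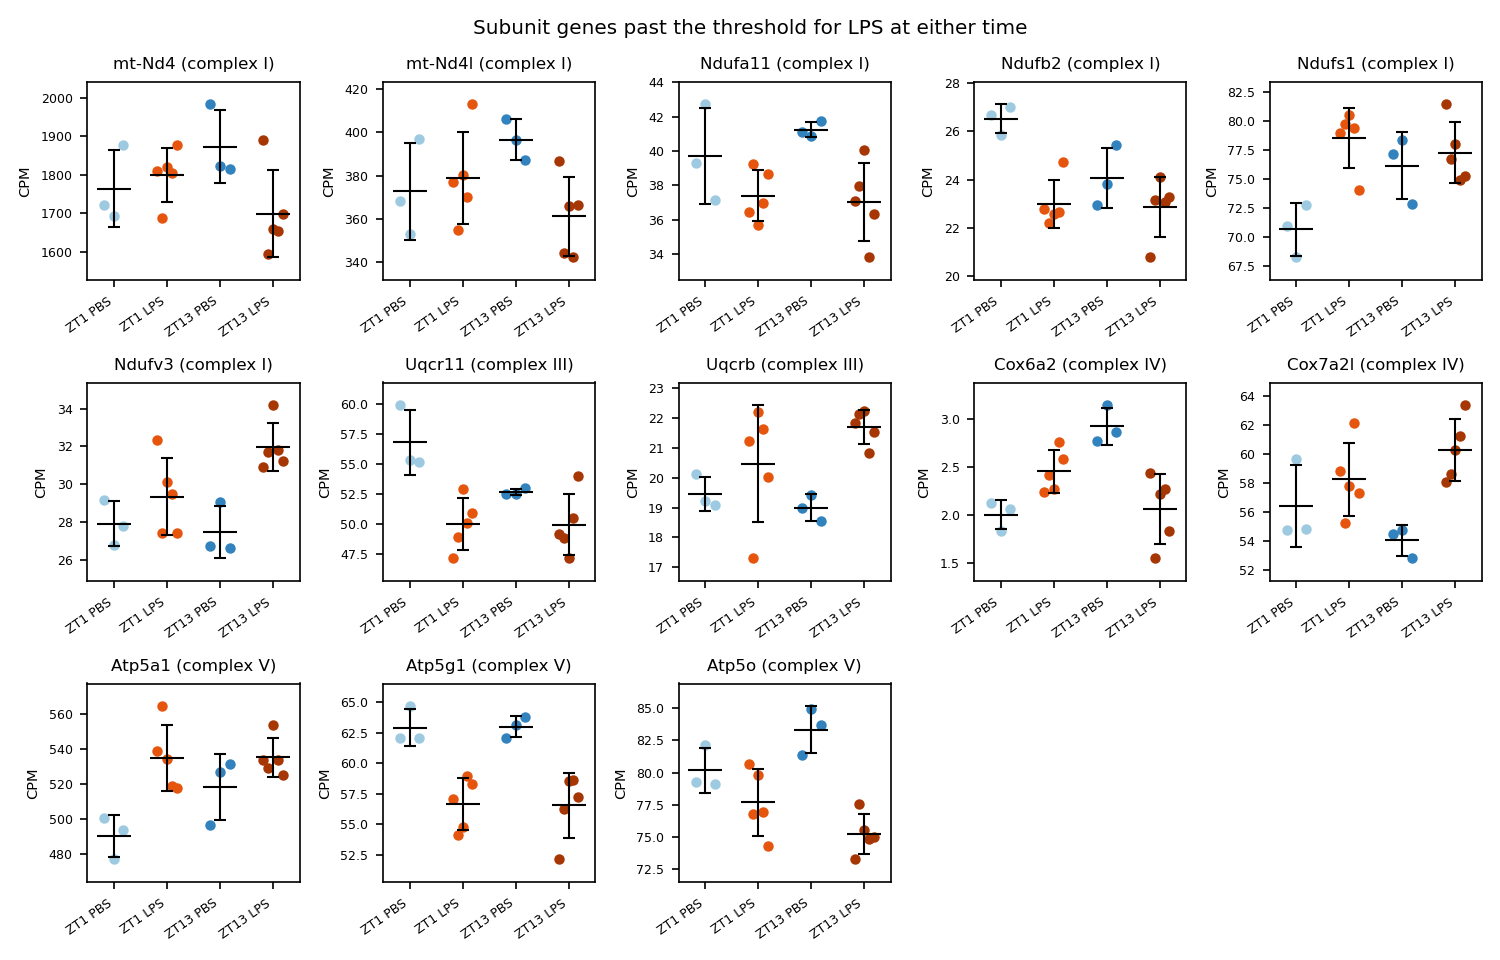
Level in CPM of members called after LPS and named in the text, in every library of the 4 groups. Points are libraries, bars are the mean ± SD, and the vertical axes do not start at 0; Atp5g1 lies lower in LPS than in PBS at both times, while Cox6a2 lies higher in LPS at ZT1 and lower at ZT13.

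The mitochondrial-genome members are read from a compact circular genome in which genes abut or overlap, and their mRNAs are cut from long transcripts that cover a whole strand. None was called at ZT1, with 2 at an unadjusted p under 0.05 in limma, and mt-Nd4 and mt-Nd4l fell at ZT13. These neighbours lie on the same strand and share its long transcript, so their calls are not independent of each other. mt-Nd4l and mt-Nd4 also overlap, and so do mt-Atp8 and mt-Atp6, so a read in the overlap belongs to both genes. The overlapping ends are shown because reads there are common to both members of a pair, and how such reads were counted is not given. The shared bases are only a part of each gene (297 bases in mt-Nd4l, 1378 in mt-Nd4, 204 in mt-Atp8 and 681 in mt-Atp6). The end of mt-Nd4l and the start of mt-Nd4 share 7 bases (chrM:10167-10173, GRCm38, plus strand), in capitals.
mt-Nd4l, chrM:10147-10173: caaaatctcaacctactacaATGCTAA
mt-Nd4, chrM:10167-10193: ATGCTAAaaattattcttccctcacta
The end of mt-Atp8 and the start of mt-Atp6 share 43 bases (chrM:7927-7969, plus strand), in capitals.
mt-Atp8, chrM:7907-7969: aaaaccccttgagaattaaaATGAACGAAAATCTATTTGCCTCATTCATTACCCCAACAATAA
mt-Atp6, chrM:7927-7989: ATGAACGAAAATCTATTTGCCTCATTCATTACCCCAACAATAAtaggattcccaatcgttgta

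mt-Nd4l (chrM:9877-10173), a small membrane-arm subunit of complex I, had 406, 397 and 387 CPM in ZT13 PBS and 387, 344, 366, 342 and 366 CPM in ZT13 LPS. Its log2 difference was -0.14 ± 0.041 (adjusted p = 0.023). mt-Nd4 (chrM:10167-11544), a proton-pumping subunit, had 1983, 1823 and 1815 CPM in ZT13 PBS and 1891, 1594, 1659, 1655 and 1699.9 CPM in ZT13 LPS. Its log2 difference was -0.14 ± 0.050 (adjusted p = 0.0497), and its groups overlap because LPS replicate 1 lay above 2 of the PBS libraries. At ZT1 neither pair of groups separates: mt-Nd4 had 1721, 1692 and 1878 CPM in PBS and 1810.3, 1687, 1821, 1806 and 1878 CPM in LPS.

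mt-Atp8 (chrM:7766-7969), a short complex V subunit, varied most among the mitochondrial-genome members. It had 44.3, 51.1 and 68.9 CPM in ZT1 PBS, 78.0, 63.7, 72.6, 66.0 and 55.9 CPM in ZT1 LPS, 82.2, 77.2 and 61.7 CPM in ZT13 PBS and 87.6, 56.9, 62.2, 70.9 and 56.4 CPM in ZT13 LPS. Its log2 difference after LPS was 0.31 at ZT1 (95% CI 0.019 to 0.60, adjusted p = 0.14) and -0.15 at ZT13 (adjusted p = 0.43). mt-Nd6, the member encoded on the other strand, had 115, 85.8 and 90.3 CPM in ZT13 PBS and 123, 101, 99.9, 114 and 95.1 CPM in ZT13 LPS, a difference of 0.14 (adjusted p = 0.31). It shares 14 bases with mt-Nd5 on the opposite strand, which averaged 1997 CPM, and the reads were not stated to be counted by strand.

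**Figure D4:**
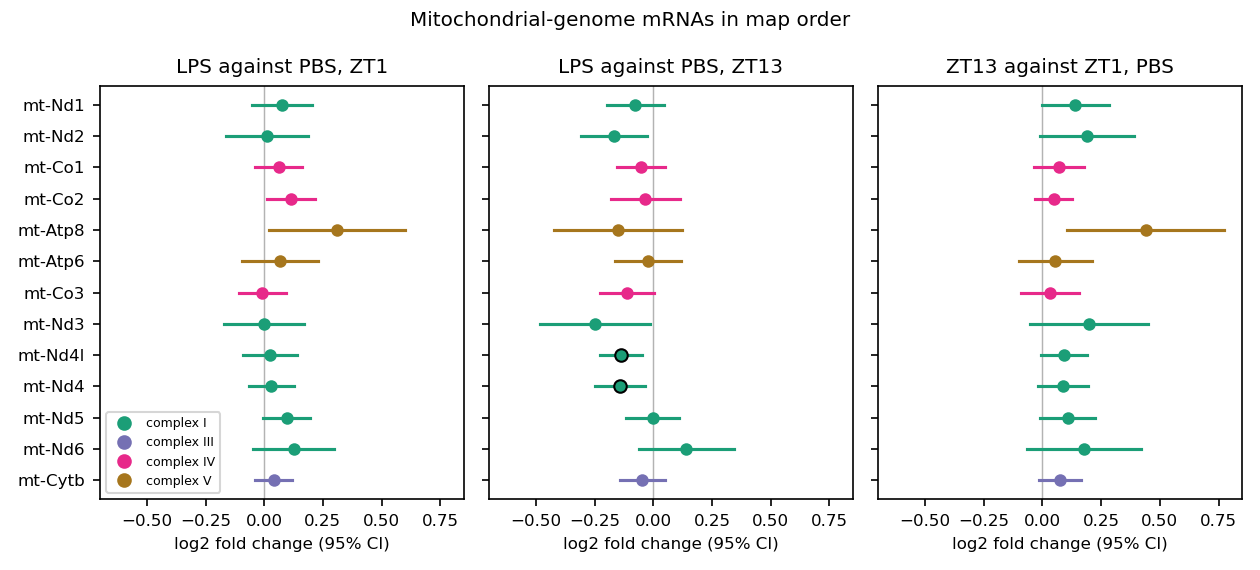
Log2 difference of each mitochondrial-genome member, in map order, for LPS against PBS at ZT1, LPS against PBS at ZT13 and PBS at ZT13 against PBS at ZT1. Bars are 95% confidence intervals and a black ring marks a call; 12 of 13 points lie above 0 in the ZT1 panel, 12 of 13 below 0 in the ZT13 panel and 13 of 13 above 0 in the panel of PBS libraries.

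As a group, 12 of the 13 mitochondrial-genome members lay above 0 at ZT1 (median log2 difference 0.061, against 0.040 over all genes tested) and 12 of 13 lay below 0 at ZT13 (median -0.077, against 0.050). These 13 genes share their transcripts and libraries and are not independent of each other. Leaving out each library gave medians of 0.025 to 0.103 at ZT1 and of -0.120 to -0.028 at ZT13, the last without ZT13 PBS replicate 1. Relative to the median of all genes, the median was 0.021 in CPM and 0.0074 to 0.112 over the other scalings and fits of all libraries at ZT1, and -0.012 without ZT1 PBS replicate 1. At ZT13 it was -0.127 in CPM and turned to 0.034 under quantile normalization. ZT13 PBS replicate 1, which has the highest mitochondrial sum, also differs from the other libraries in a suffix of its description whose meaning is not given.

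Between PBS libraries, ZT13 against ZT1, 0 of 91 members were called, where 0.52% of all genes were (8 members at an unadjusted p under 0.05 in limma). All 13 mitochondrial-genome members lay above 0 (median 0.091), and without ZT13 PBS replicate 1 the median was 0.048. Cox6a2 (0.45, adjusted p = 0.19) and mt-Atp8 (0.44, adjusted p = 0.25) differed most. Between LPS libraries, ZT13 against ZT1, 0 members were called where 0.0212% of all genes were (6 members at an unadjusted p under 0.05), the smallest adjusted p was 0.32, and the 95% confidence interval lay within 0.5 log2 units for each of the 91.

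Whether LPS acted differently at ZT13 than at ZT1 was tested as an interaction over the 16 libraries. It called 0 members, where 0.159% of all genes were called, and 7 members were at an unadjusted p under 0.05 in limma. The median interaction was -0.148 for the mitochondrial-genome members, 12 of 13 below 0, and -0.0019 for the nuclear members. The interval lay within 0.5 log2 units for 88 of 91 members, the others being Cox6a2 (-0.67), mt-Atp8 (-0.46, adjusted p = 0.51) and mt-Nd3 (-0.25). mt-Nd4 (-0.17, adjusted p = 0.46) and mt-Nd4l (-0.16, adjusted p = 0.49) did not pass the test over all genes (unadjusted p = 0.028 and 0.033), so their calls at ZT13 are not shown to be particular to that time.

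**Figure D5:**
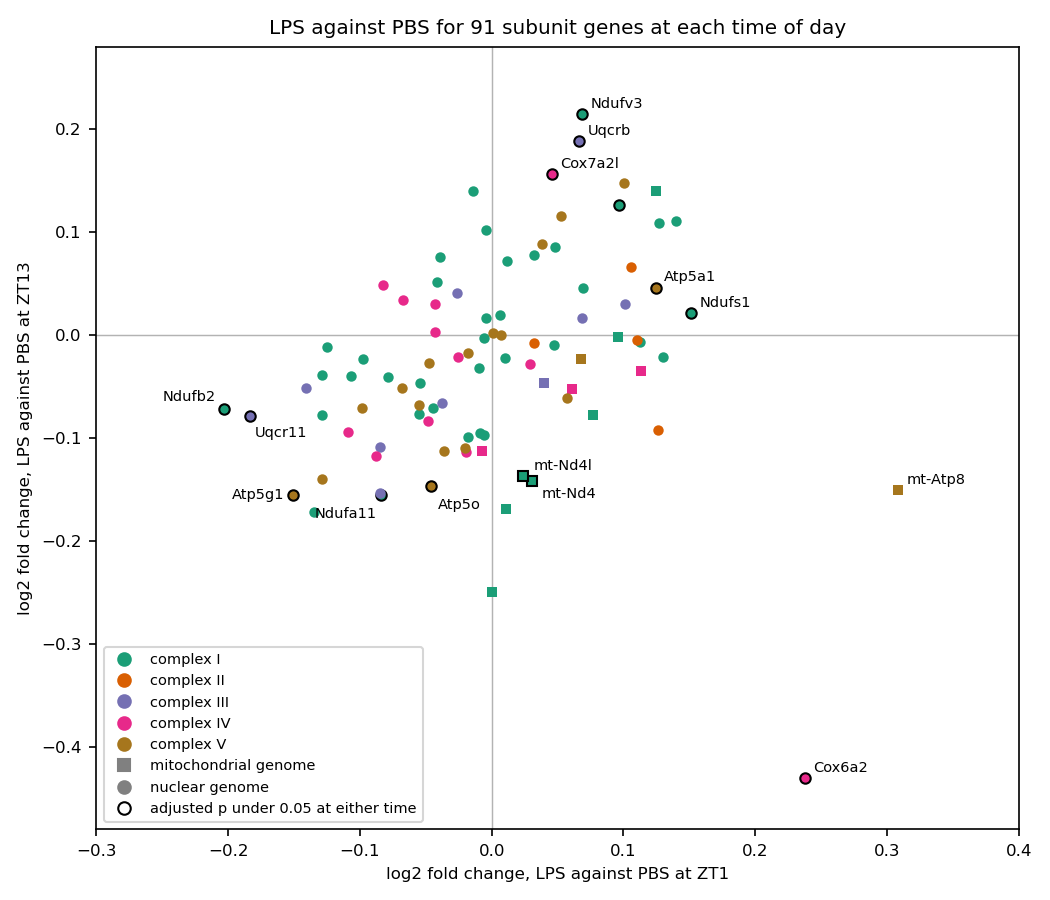
Log2 difference after LPS at ZT13 against that at ZT1 for the 91 members tested. Squares are mitochondrial-genome members, circles are nuclear members and a black ring marks a call at either time; 11 of the 13 squares lie to the right of 0 and below 0, and every circle but that of Cox6a2 lies within 0.25 of 0 on both axes.

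Of the 78 nuclear members, 20 were above 0 and 37 below 0 at both times. That is 73.1%, near the 74.7% of all genes tested that kept their side. Between the times, the Pearson correlation of the log2 differences was 0.32 over the nuclear members and 0.86 over all genes. The Spearman correlations were 0.56 and 0.66. Of the mitochondrial-genome members, 11 of 13 were above 0 at ZT1 and below 0 at ZT13.

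Nuclear subunit genes are known to be driven by NRF1, by ETS-family factors such as GABP and by YY1. Promoter sequence from RefSeq (GRCm38.p6), from 250 bases before to 50 after the start site, was matched for 69 of the 98 gene identifiers, with Atp5o matched through both of its identifiers. A gene counted if any of its promoters held the motif on either strand. The NRF1 core GCATGCGC was present in 10 of them (14.5%, against 3.05% of 27025 genes with a promoter). The ETS core CCGGAAG was present in 17 (24.6%, against 9.93%) and the YY1 core AAGATGG in 11 (15.9%, against 7.28%). The TATA box TATAAA was present in 8 (11.6%, against 15.7%). No motif searched contains another, and a match describes letters only. The median log2 difference at ZT1 was -0.031 for the 10 members with the NRF1 core and -0.019 for those without it, and at ZT13 0.025 and -0.025. For the ETS core it was -0.025 with and -0.018 without at ZT1, and -0.012 and -0.032 at ZT13.

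Promoters of 4 called members are shown: Atp5g1, which fell at both times, Ndufv3, which rose at ZT13, and Uqcr11 and Ndufa11, which fell and hold the NRF1 core, with the ETS and NRF1 cores in capitals. The Ndufa11 window holds the NRF1 core on both strands as a single palindromic run, and the Uqcr11 window holds an ETS core and an NRF1 core. The other windows hold neither.
Atp5g1, chr11:96075582-96075881, minus strand: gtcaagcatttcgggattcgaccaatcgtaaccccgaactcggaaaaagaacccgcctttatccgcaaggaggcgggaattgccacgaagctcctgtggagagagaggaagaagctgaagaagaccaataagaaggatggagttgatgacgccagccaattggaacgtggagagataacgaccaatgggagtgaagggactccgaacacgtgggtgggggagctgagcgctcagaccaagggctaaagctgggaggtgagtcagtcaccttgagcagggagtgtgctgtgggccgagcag
Ndufv3, chr17:31519865-31520164, plus strand: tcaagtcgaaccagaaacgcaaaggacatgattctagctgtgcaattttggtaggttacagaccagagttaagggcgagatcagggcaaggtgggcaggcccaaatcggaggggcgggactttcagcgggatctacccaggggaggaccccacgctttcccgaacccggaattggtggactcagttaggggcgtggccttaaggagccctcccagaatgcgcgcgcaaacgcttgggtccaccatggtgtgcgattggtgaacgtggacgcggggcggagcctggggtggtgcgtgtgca
Uqcr11, chr10:80406772-80407071, minus strand: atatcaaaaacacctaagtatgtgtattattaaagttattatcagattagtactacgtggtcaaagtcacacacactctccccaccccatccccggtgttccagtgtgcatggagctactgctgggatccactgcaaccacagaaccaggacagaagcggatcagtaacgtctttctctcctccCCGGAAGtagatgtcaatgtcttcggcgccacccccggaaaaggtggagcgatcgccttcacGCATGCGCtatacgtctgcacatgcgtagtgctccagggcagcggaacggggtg
Ndufa11, chr17:56717512-56717811, plus strand: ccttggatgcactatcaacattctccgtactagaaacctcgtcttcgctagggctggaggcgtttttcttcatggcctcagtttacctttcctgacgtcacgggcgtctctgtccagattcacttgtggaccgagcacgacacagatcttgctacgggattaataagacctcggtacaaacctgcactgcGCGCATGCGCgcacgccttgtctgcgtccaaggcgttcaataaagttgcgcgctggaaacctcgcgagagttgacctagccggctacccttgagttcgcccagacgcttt

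Other genes of energy metabolism were read beside the subunits from lists written with earlier results of these data known. As background for these lists and the cell type markers below, 11.1% of all genes tested rose and 5.15% fell at ZT1. At ZT13, 19.2% rose and 9.4% fell. Of 46 assembly factors, limma called 0 at ZT1 (2 at an unadjusted p under 0.05), and at ZT13 1 rose, Cox19 (0.25), and 5 fell, with Bcs1l (-0.35), which inserts the Rieske protein into complex III, and Cox10 (-0.24), which acts in making the heme of complex IV, falling most. Of 25 genes of mitochondrial DNA expression, Pnpt1 (0.50) and Mtpap (0.23) rose at ZT1. At ZT13, Pnpt1 (0.37) and Ssbp1 (0.35) rose and Tufm fell by 0.35. Of 78 mitochondrial ribosome genes, 2 rose at ZT1 and 6 at ZT13 with none falling, among them Mrpl41 (0.45 and 0.40). Of the 11 genes on the biogenesis list, limma called 0 at either time, with 1 at an unadjusted p under 0.05 at each.

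In glycolysis, 3 of 20 genes rose and 3 fell at ZT1, and 4 rose and 5 fell at ZT13, with Hk2, a hexokinase that binds mitochondria, higher by 1.14 and 1.27 and Eno1 lower by 0.19 and 0.23 on the log2 scale. In the TCA cycle, 3 of 21 rose and 0 fell at ZT1, and 4 rose and 5 fell at ZT13, with Idh2 at 0.46 and 0.56 and Idh3a at -0.17 at ZT13. Of 15 carriers and related proteins, Ucp2, an inner-membrane carrier of immune cells, rose by 2.20 and 1.81, Ndufa4l2 by 0.63 at both times, and Cycs, the cytochrome c that links complex III to complex IV, fell by 0.21 at ZT13. Of 11 oxidative defence genes, 3 rose at ZT1 and 6 at ZT13 with none falling, with Hmox1 at 1.20 and 1.71 and Gpx1 at 0.67 and 0.90.

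Markers of several cell types moved with LPS, and their part in the members' values was not tested. Summed microglial markers ran from 190 to 208 CPM in ZT1 PBS and from 247 to 392 CPM in ZT1 LPS, and from 187 to 201 and from 305 to 357 CPM at ZT13, with 6 of 7 higher and 1 lower at each time. Summed astrocyte markers were 4601 to 4761 against 5049 to 5528 CPM at ZT1 and 4712 to 4994 against 5341 to 5852 CPM at ZT13, with 4 of 7 called higher at each time and 1 lower at ZT13. Summed oligodendrocyte markers were 2043 to 2395 against 1808 to 2156 CPM at ZT1 and 2340 to 2559 against 1851 to 2009 CPM at ZT13, with 2 and 4 of 6 called lower. Summed endothelial markers were 164 to 167 against 178 to 255 CPM at ZT1 and 110.0 to 131 against 245 to 268 CPM at ZT13, with 4 of 7 called higher and 1 lower at ZT1 and 6 higher and 0 lower at ZT13. Neuron markers were 8016 to 8227 against 7675 to 8205 CPM at ZT1 and 8132 to 8597 against 7708 to 8098 CPM at ZT13, with 1 higher and 1 lower at ZT1 and 0 higher and 5 lower at ZT13, of 9. Neutrophil markers were at 0.342 to 0.838 CPM in PBS and 8.52 to 74.4 CPM in LPS, and choroid plexus markers varied from 10.1 to 939.9 CPM within the groups.

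Some member values carry limits of counting. Fractions of a read appear in at least 1 library for 41 members, 33 of them nuclear, and their source was not tested. Among called members, Atp5o, Atp5g1, Ndufs1 and mt-Nd4l had whole reads in 0 of the 16 libraries. Of the 85 nuclear members, 30 share exon bases with another annotated gene, 26 of them with a gene on the opposite strand. Fractions do not simply follow such overlaps. Atp5g1 shares no exon bases with another annotated gene, while mt-Atp8 overlaps mt-Atp6 and had whole reads in 15 libraries.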

How the data were processed

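Total RNA of mouse cortex was depleted of ribosomal RNA and sequenced by the authors, whose processing notes name GRCm38, bcl2fastq and DRAGEN 4.0.3-8; the strand setting and annotation are not given in the sources used here. The authors deposited a single table of CPM values for 16 libraries, each summing to 1000000, from which 287 repeated of 55774 lines were dropped. Every value was a multiple of 0.01 read, and 73.5% to 74.7% were whole reads within 0.005 read, so no count test was run.

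Groups followed sample titles. The 18859 genes that reached 1 CPM in 3 or more libraries were tested on log2(CPM + 0.5), where fold changes of low genes are understated, with limma 3.58.1 in R 4.3.3: moderated statistics with an intensity trend, fitted across all genes in a fit of the groups compared, and Benjamini-Hochberg adjustment with calls at an adjusted p under 0.05. The interaction used all 16 libraries. The fits were tested on simulated data. Isoform ratios of CPM + 0.5 were compared by exact permutation in Python 3.11.15. Depth, given in the report, sets a limit of 3 reads per gene, and it covers counting error only. Gene positions and overlaps are from GENCODE M21 (GRCm38).

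Genes named were all mitochondrial-genome members, catalytic core subunits, subunits with isoforms and, per complex, the called nuclear members with the largest rise and fall; the other called members were named after their values were seen, and 1 called member is not reported here by name. The members and lists were chosen with earlier results of these data known. Alternatives covered pseudocount, filter, scaling, intensity trend, sample weights, a replicate block, a shared fit, the treatment field and leaving out each library; removal of GC and length trends was added after the data were seen.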

Additional observations from a re-analysis of the deposited data

Results flagged for a closer look

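Within groups of 5 libraries, a library far from the other 4 was looked for in 51 named members and in the summed level of each genome, 106 sets of 5 values in all, and 7 were found, where chance gives about 1 in 20. In ZT1 LPS replicate 5, Ndufs1 (74.1 CPM, the next library at 79.0) and Atp5g3 (78.6 CPM, next 82.5) were low and Ndufb2 (24.7 CPM, next 22.8) was high. In ZT1 LPS replicate 1, Cox8b was high at 0.606 CPM (next 0.181). In ZT13 LPS replicate 3, Ndufv3 (34.2 CPM, next 31.8) and Cox4i1 (230.5 CPM, next 226) were high, and in ZT13 LPS replicate 2, Cox6b2 was low at 0.258 CPM (next 0.797).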

How the results depend on the processing

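The count of members called at ZT1, 5 in the values reported, was 15 with GC and length trends removed, 8 with sample quality weights, 1 without the filter on low values, 1 without the intensity trend, 0 with the treatment field and 0 with the replicate number as a block (1 and 8 in limma at an unadjusted p under 0.05). At ZT13, the count of 10 became 59 with GC and length trends removed, 24 under median-of-ratios scaling, 16 under quantile normalization, 5 without the filter, 5 without the intensity trend and 0 with the treatment field. Cox7a2l was -0.023 at ZT13 with GC and length trends removed, where the median of all genes was -0.082. Leaving out each library gave 0 to 5 calls at ZT1 and 5 to 13 at ZT13, with 13 without ZT13 LPS replicate 1, 6 without LPS replicate 2, and 5 without PBS replicate 2 or PBS replicate 3. The cause of these changes was not tested. Whether replicate numbers mark a batch or only the sample is not given. Correlations of same-numbered deviations ran from -0.199 to 0.328, with 3 of 20 pairs over 0.1, and the block gave 9 calls at ZT13. Both comparisons between times and the interaction gave 0 members in every setting run, each in limma (6, 8 and 7 at an unadjusted p under 0.05 in the values reported, for LPS libraries, PBS libraries and the interaction). Over the called members named, 189 values kept their direction and call, 103 kept the direction and lost the call and 1 changed sign. Reads per library limit the isoforms below 1 CPM, and 3 PBS libraries per time limit each comparison.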

Other observations

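The mitochondrial ribosomal RNAs mt-Rnr1 and mt-Rnr2, which the depletion removes, kept low levels after it. Neither was called at ZT1, where LPS and PBS differed by 0.71 (adjusted p = 0.077 in limma) and 0.58 (adjusted p = 0.21) on the log2 scale. Their median difference was -0.076 at ZT13 and -0.75 between LPS libraries, ZT13 against ZT1, with 0 called. Over 24 mitochondrial noncoding genes, summed levels were 20.6 to 26.5 CPM in ZT1 PBS and 27.3 to 75.0 CPM (median 30.9) in ZT1 LPS. The part of the depletion in these values was not tested. Between PBS libraries, ZT13 against ZT1, the glucose transporter gene Slc2a1 (0.49, adjusted p = 0.039) and Ucp2 (0.67, adjusted p = 0.025) were higher at ZT13.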
